A study of Caenorhabditis elegans with 30 samples.

Results

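The cytochromes P450 of *C. elegans* were taken by name, as every gene called *cyp-* followed by a number, which gave 80 genes of the 46726 in the count files. Of these, 74 are protein coding genes and 6 are pseudogenes (*cyp-13A9*, *cyp-25A5*, *cyp-29A1*, *cyp-31A1*, *cyp-34A3* and *cyp-35D2*). They fall into 15 families and 4 clans, with 45 genes in the CYP2-like clan, 21 in the CYP3-like clan, 13 in the CYP4-like clan and 1 of the mitochondrial type. Chromosome V carries 43 of them, and 48 lie in 12 runs in which neighbours are at most 20000 bases apart. With the filter on low counts 69 of the 80 genes could be tested, among 16048 genes of all. The 11 others were too low (*cyp-13A8*, *cyp-25A6*, *cyp-29A1*, *cyp-33B1*, *cyp-33C1*, *cyp-33C6*, *cyp-33C11*, *cyp-33C12*, *cyp-34A3*, *cyp-35B3* and *cyp-35D2*). The gene *daf-9* encodes a P450 under another name and is not among the 80.

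Cytochromes P450 are haem proteins that split molecular oxygen and insert an oxygen atom into their substrate, with electrons passed from NADPH by a reductase. Some act on compounds made by the animal itself, such as sterols, fatty acids and signalling lipids. Others act on foreign compounds, and in nematodes the *cyp-35* genes of the intestine are known for their induction by such compounds.

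Worms grown to L4 larvae were given plates holding 100μM of AZT (3'-azido-3'-deoxythymidine), d4T (2',3'-didehydro-2',3'-deoxythymidine) or FLT (3'-deoxy-3'-fluorothymidine), plates with the solvent alone, 0.033% DMSO, or plates with no addition. These are thymidine analogues that differ at the sugar, by an azido group, a double bond or a fluorine. RNA of whole worms was collected after 24h or 72h for 10 groups of 3 biological replicates, after bacteria and eggs had been filtered off. The strain of the sequenced nematodes is not given in the sources used here, and no other allele is named. In whole worms, fewer cells of a type and less RNA per cell cannot be told apart. Libraries held 11.33 to 30.62M counts on genes (median 23.98M), and the P450s made up 0.0827 to 0.145% of them. Lane and exposure cannot be told apart, as every exposure had its own lane, and FLT cannot be told apart from the second flow cell, which held all FLT libraries and no others. The d4T 24h replicate 2 library stood apart. Its log2 CPM (counts scaled to library size with TMM factors) correlated at 0.987 with each AZT 24h library, and at 0.914 and 0.933 with the other d4T 24h libraries. The counts with d4T at 24h and the d4T values of most named P450s are therefore also given without it. The AZT 72h replicate 1 and d4T 24h replicate 1 libraries stood out in ribosomal RNA, at 5.777% and 4.985% of counts (median of all libraries 0.675%), and in unassigned reads, at 26.51% and 25.33%. Without these libraries the P450s called were 20 for AZT at 72h and 7 for d4T at 24h, beside 25 and 9 with them. Of all genes 36.5% and 2.21% were called in these refits. Within a time, the 3 comparisons with DMSO share the same DMSO libraries. All 8 intestinal, 12 moulting and cuticle, 12 germline and oocyte, 5 muscle and 6 neuronal marker genes had enough counts to be tested, as had 6 of 9 sperm markers.

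Per length, *cyp-35A2* was the most abundant P450, with a mean of 82.4 RPKM (counts scaled to library size and exon length) over the 30 libraries. It was followed by *cyp-31A2* (69.2 RPKM), *cyp-35C1* (67.6 RPKM), *cyp-31A5* (57 RPKM) and the mitochondrial type *cyp-44A1* (40.6 RPKM). The ranges over libraries overlapped among these 5, at 37.2 to 156 RPKM for *cyp-35A2*, 20.2 to 126 RPKM for *cyp-31A2*, 31.1 to 106 RPKM for *cyp-35C1*, 15.2 to 112 RPKM for *cyp-31A5* and 18 to 56.4 RPKM for *cyp-44A1*. Summed over all 80 genes, the median level of a group lay between 930 CPM with d4T at 72h and 1257 CPM in unexposed nematodes at 72h. At 24h the sums were 923 to 1041 CPM with AZT, 966 to 1084 CPM with d4T and 1130 to 1250 CPM with FLT, against 893 to 1085 CPM with DMSO. At 72h they were 1037 to 1239 CPM with AZT, 874 to 1017 CPM with d4T and 1002 to 1133 CPM with FLT, against 1136 to 1224 CPM with DMSO. These ranges overlapped those of DMSO with AZT and d4T at 24h and AZT at 72h, and did not with FLT at 24h (higher) or with d4T and FLT at 72h (lower). The result at 72h depended on the scaling. As a share of counts on genes, without TMM factors, the P450s at 72h held 0.103 to 0.1148% with DMSO and 0.1181 to 0.1422% with AZT. With d4T they held 0.1002 to 0.1144% and with FLT 0.1002 to 0.1143%. By that measure AZT lay above DMSO at 72h, and d4T and FLT overlapped it.

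A gene was called changed where the quasi-likelihood test of edgeR gave an adjusted p under 0.01, and 40 of the 69 tested P450s were called in at least 1 of the 6 comparisons of an analogue with DMSO. That is 58.0% of them, where 64.0% of all genes tested were so called. With AZT at 24h 1 of the 69 rose and 15 fell, where 1.07% of all genes tested rose and 9.15% fell. With d4T at 24h 4 rose and 5 fell (4.07% and 2.24% of all genes), and with FLT at 24h 6 rose and 6 fell (5.74% and 9.39% of all genes). At 72h AZT raised 19 and lowered 6 (27.2% and 21.6% of all genes), d4T raised 2 and lowered 2 (5.82% and 5.86%), and FLT raised 6 and lowered 4 (4.52% and 3.54%). As a share of the 69, the 15 falls with AZT at 24h are 21.7%, above the 9.15% of all genes, while the 19 rises with AZT at 72h are 27.5%, close to the 27.2% of all genes. The falls at 24h depend on the control. None of the 69 was called with AZT at 24h against unexposed nematodes (0.224% of all genes rose and 0.48% fell). With DMSO 11 of the 69 were higher than in unexposed nematodes at 24h (15.9%, against 9.01% of all genes). The 6 falls with AZT at 72h are 8.7%, below the 21.6% of all genes. The median log2 fold change of the 69 was -0.7 with AZT at 24h and 0.59 with AZT at 72h, against -0.02 and 0.36 over all genes. That of all genes at 72h with AZT depended on the scaling, at 0.24 with relative log expression factors and 0.67 with library totals. With d4T the medians were 0.0 at 24h and 0.22 at 72h, and with FLT 0.15 and 0.27, against 0.02, 0.17, 0.15 and 0.01 over all genes.

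**Figure D1:**
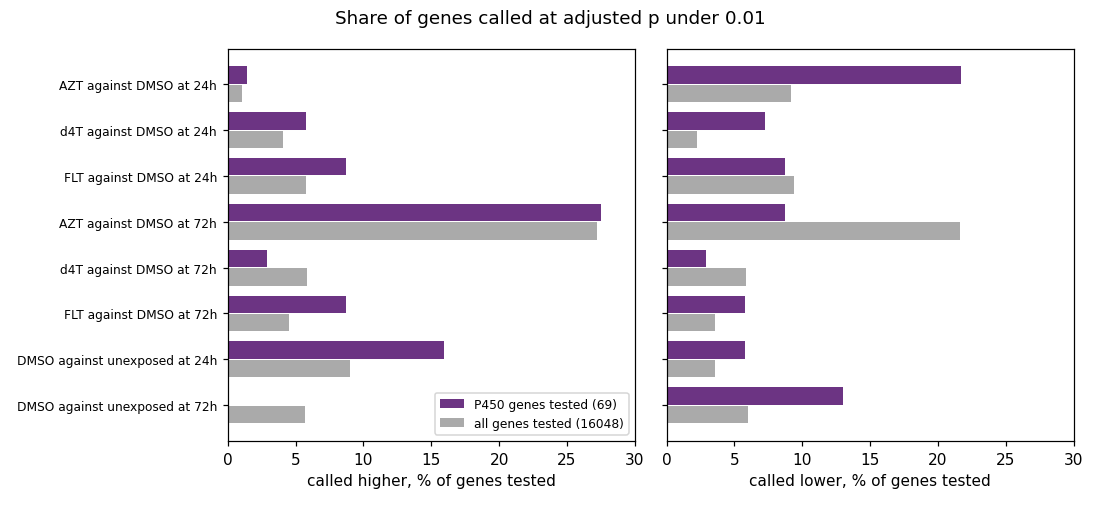
Bars give the percentage of the 69 tested P450s (purple) and of all 16048 genes tested (grey) called higher (left) or lower (right) at an adjusted p under 0.01, for 8 comparisons. The share of P450s that fell with AZT at 24h was 21.7%, against 9.15% of all genes, and the share that fell with AZT at 72h was 8.7%, against 21.6%. The first of these holds against DMSO only. With DMSO 15.9% of the P450s were higher than in unexposed nematodes at 24h, and against those none was called with AZT.

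These counts rest on few libraries in some comparisons. The count for AZT at 24h, 16 in all, was 5 without DMSO 24h replicate 1, 8 without DMSO 24h replicate 2, and 7, 6 and 9 without AZT 24h replicate 1, 2 and 3. In these refits 3.27%, 5.4%, 2.41%, 2.79% and 6.66% of all genes were called, in the same order. The count for d4T at 24h, 9 in all, was 22 (12 higher, 10 lower) without the d4T 24h replicate 2 library that stood apart, and these include all 9. In the same refit 36.9% of all genes were called, 2398 higher and 3634 lower. The 13 P450s called only in that refit were *cyp-13A10*, *cyp-13B1*, *cyp-14A2*, *cyp-14A5*, *cyp-25A1*, *cyp-25A2*, *cyp-32B1* and *cyp-35B1*, which rose, and *cyp-13B2*, *cyp-31A2*, *cyp-31A3*, *cyp-31A5* and *cyp-44A1*, which fell. The count for d4T at 72h, 4 in all, was 0 or 1 without any of the 6 libraries compared, where 4.91% to 7.03% of all genes were called. With library totals as scaling the split for FLT at 24h was 9 higher and 3 lower (1345 and 946 of all genes). That for d4T at 72h was 6 higher and 0 lower (2367 and 508 of all genes). With relative log expression factors the split for d4T at 72h was 1 higher and 3 lower (696 and 1188 of all genes).

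**Figure D2:**
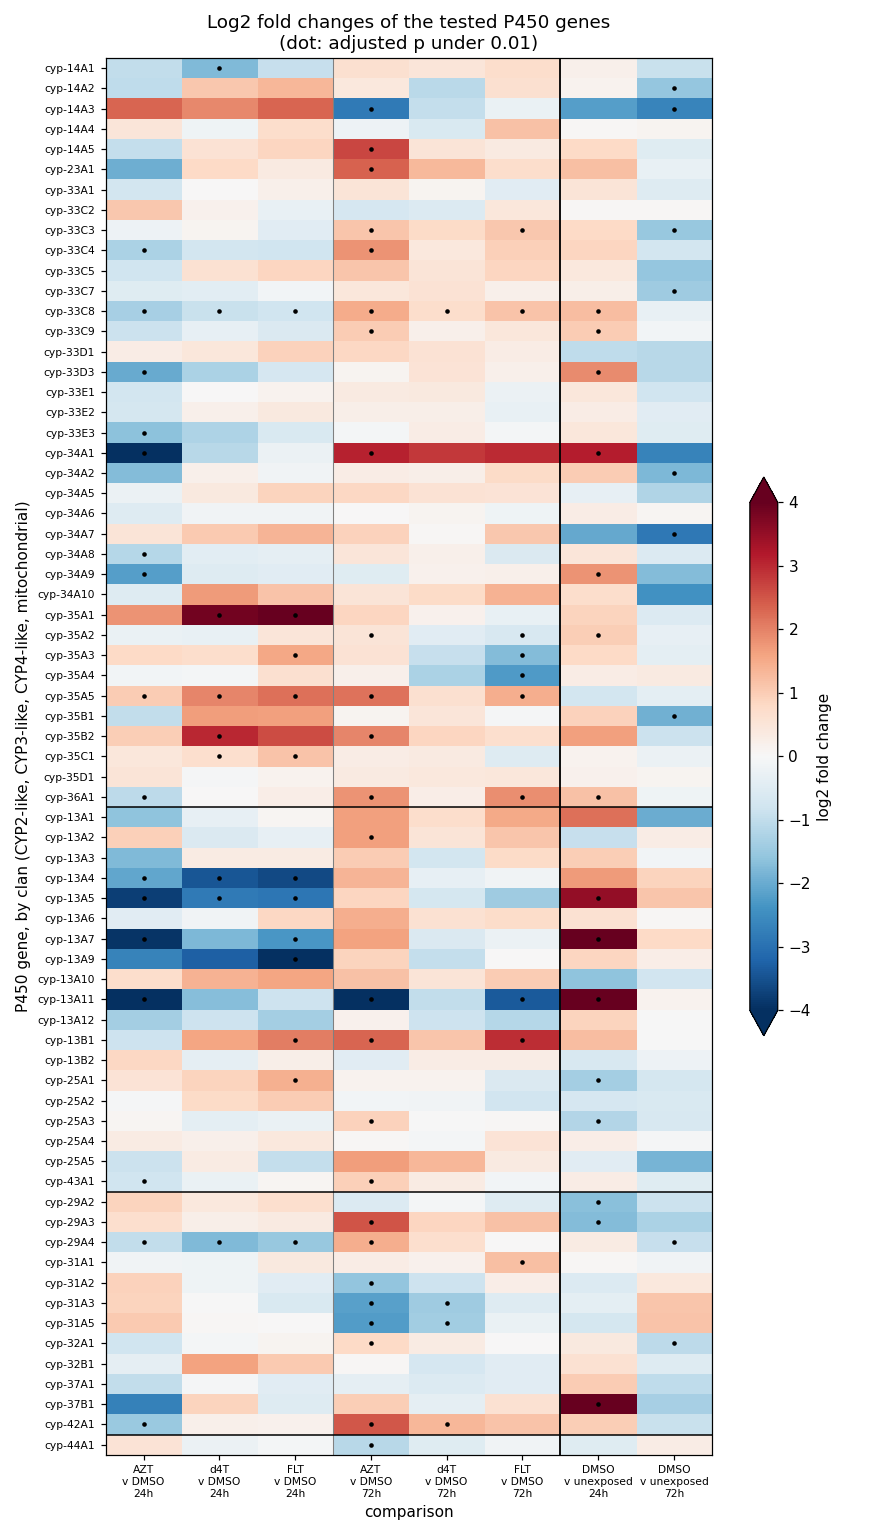
Colour gives the log2 fold change of each of the 69 tested P450s (rows, ordered by clan) in the 6 comparisons of an analogue with DMSO and the 2 of DMSO with unexposed nematodes (columns), with a dot where the adjusted p was under 0.01 and the darkest shades also standing for changes beyond the scale. The row of *cyp-33C8* has a dot in all 6 analogue columns, blue at 24h and red at 72h, and that of *cyp-35A5* is red in all 6.

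The *cyp-35* family held most of the rises at 24h. Of its 11 genes 9 were tested, and 1 rose with AZT, 4 with d4T and 4 with FLT at 24h, with none called lower. Of all genes 1.07%, 4.07% and 5.74% rose in these comparisons. *cyp-35A5* (WBGene00019473, chromosome V of WBcel235, 3936326 to 3938597) belongs to the xenobiotic-inducible group. At 24h it had 13.4, 12.5 and 12.4 CPM with AZT, 30.1, 13.6 and 30.4 CPM with d4T and 26.3, 22.7 and 40 CPM with FLT, against 5.95, 6.46 and 6.73 CPM with DMSO. Every analogue library was above every DMSO library, and the lowest d4T value was that of replicate 2. The log2 fold changes were 1.0 (standard error 0.25, adjusted p = 0.0063) with AZT, 1.95 (0.25, adjusted p = 2.3e-05) with d4T and 2.21 (0.26, adjusted p = 3.2e-06) with FLT in edgeR's test. Without d4T 24h replicate 2 the value with d4T was 2.22. Unexposed nematodes at 24h had 9.32, 12.2 and 10.1 CPM, between DMSO and the analogues. Against them *cyp-35A5* rose with d4T (1.23, edgeR adjusted p = 4.3e-04) and FLT (1.49, adjusted p = 1.6e-04), while AZT gave 0.28 and did not pass. The call with AZT at 24h was also lost without each library compared except DMSO replicate 3 (adjusted p up to 0.03) and with library totals (adjusted p = 0.016).

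At 72h *cyp-35A5* had 27.1, 20.2 and 18.8 CPM with AZT, 8.04, 6.64 and 8.64 CPM with d4T and 16.7, 12 and 12.1 CPM with FLT, against 4.37, 5.41 and 5.02 CPM with DMSO. Again no analogue library overlapped DMSO. It rose with AZT (2.16, standard error 0.26, edgeR adjusted p = 4.7e-07) and FLT (1.46, standard error 0.25, adjusted p = 2.6e-04), and d4T gave 0.65 (95% interval 0.14 to 1.17, adjusted p = 0.055). At 24h the effect of AZT was smaller than that of d4T (AZT minus d4T -0.95, adjusted p = 0.0042, lost without d4T replicate 1 or 3 or any AZT library) and than that of FLT (AZT minus FLT -1.21, adjusted p = 3.2e-04). d4T and FLT differed by -0.26 (95% interval -0.76 to 0.23). At 72h AZT was 1.5 above d4T (edgeR adjusted p = 1.6e-04).

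*cyp-35A1* (WBGene00015399, chromosome V, 7359929 to 7361773), of the same inducible group, was low at 24h in the controls. It had 0.121, 0.146 and 0.351 CPM with AZT, 0.960, 0.333 and 1.43 CPM with d4T and 0.700, 0.712 and 1.99 CPM with FLT at 24h, against 0, 0.0818 and 0.0826 CPM with DMSO, which is 4 reads in all. All d4T and FLT libraries were above all DMSO libraries. It rose with d4T (3.85, standard error 0.68, adjusted p = 4.7e-04) and FLT (4.14, standard error 0.67, adjusted p = 1.3e-04 in edgeR's test), and AZT gave 1.79 (adjusted p = 0.092). Without d4T 24h replicate 2 the value with d4T was 4.19. The 72h levels were 0.651 to 2.25 CPM over the 3 analogues and 0.925 to 1.14 CPM with DMSO, where none was called. The effect at 72h minus that at 24h was -3.69 for d4T (edgeR adjusted p = 0.0032, lost without DMSO 24h replicate 1 or d4T 24h replicate 3) and -4.45 for FLT (adjusted p = 6.5e-04).

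*cyp-35A2*, *cyp-35A3* and *cyp-35A4* fell with FLT at 72h. *cyp-35A2* (WBGene00015400, chromosome V, 7362319 to 7364182), next to *cyp-35A1* and linked to fat storage, had 83.9, 93.4 and 97.5 CPM with FLT at 72h, against 126, 157 and 148 CPM with DMSO. *cyp-35A3* (WBGene00019565, chromosome V, 4022609 to 4024482) had 5.08, 3.47 and 6.6 CPM with FLT, against 15.6, 20.3 and 14.5 CPM with DMSO. *cyp-35A4* (WBGene00016786, chromosome V, 4031619 to 4033446), which neighbours *cyp-35A3*, had 0.456, 0.338 and 0.689 CPM with FLT, against 3.24, 2.62 and 1.6 CPM with DMSO. In all 3 genes the FLT libraries lay below the DMSO libraries. The log2 fold changes were -0.65 (standard error 0.16, adjusted p = 0.0055), -1.72 (0.36, adjusted p = 0.0017) and -2.28 (0.4, adjusted p = 2.8e-04) in edgeR's test. The fall of *cyp-35A2* was lost with library totals (-0.52, adjusted p = 0.029) and without each library except DMSO replicate 1, and that of *cyp-35A3* without DMSO replicate 2 or FLT replicate 2. All 3 genes were also lower with FLT than in unexposed nematodes at 72h (-0.98, -2.1 and -1.93). At 24h *cyp-35A3* had 29.5, 10.8 and 9.61 CPM with FLT, against 5.01, 6.14 and 5.82 CPM with DMSO. There it rose by 1.55 (edgeR adjusted p = 0.0023), lost without FLT replicate 1, DMSO replicate 1 or DMSO replicate 2. The effect of FLT at 72h minus that at 24h was -1.15 for *cyp-35A2*, -3.27 for *cyp-35A3* and -2.94 for *cyp-35A4*, all called.

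For *cyp-35A2* the level with AZT was below FLT at 24h and above it at 72h. *cyp-35A2* had 106, 98.8 and 111 CPM with AZT at 24h and 204, 166 and 172 CPM with FLT, a difference of -0.78 (edgeR adjusted p = 3.2e-04). At 72h it had 248, 207 and 159 CPM with AZT, above FLT by 1.16 (adjusted p = 5.1e-06). *cyp-35A3* and *cyp-35A4* were higher with AZT than with FLT at 72h by 2.3 and 2.49, and higher than with d4T by 1.5 and 1.46, both of the last lost without AZT replicates 1 or 2 or d4T replicates 1 or 2, and that of *cyp-35A4* also without d4T replicate 3. *cyp-35A2* was lower with d4T than with FLT at 24h (-0.8, adjusted p = 0.002), the only P450 called in that comparison. The rise of *cyp-35A2* with AZT over DMSO at 72h (0.51, adjusted p = 0.0071) was lost with relative log expression factors (0.39, adjusted p = 0.035), with DESeq2 and without 4 of the 6 libraries compared (AZT replicates 1 and 2, DMSO replicates 1 and 3).

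*cyp-35C1* (WBGene00007362, chromosome V, 13896663 to 13898487), another inducible P450, had 93, 90 and 115 CPM with d4T and 150, 120 and 148 CPM with FLT at 24h, against 47.7, 72.3 and 68.3 CPM with DMSO. All 6 analogue libraries were above the DMSO libraries. It rose by 0.66 with d4T (standard error 0.15, edgeR adjusted p = 0.0046) and by 1.15 with FLT (standard error 0.15, adjusted p = 2.1e-05), and AZT gave 0.45 (adjusted p = 0.033). The call with d4T was lost without DMSO replicate 1, d4T replicate 1 or d4T replicate 3, and was 0.7 without d4T replicate 2. At 72h it had 72.9, 80 and 75.6 CPM with FLT, below AZT (144, 144 and 120 CPM) by 0.84 and below d4T (144, 120 and 163 CPM) by 0.9, both called, with DMSO at 104, 121 and 106 CPM. *cyp-35D1* (WBGene00008829), whose enzyme hydroxylates the anthelmintic thiabendazole, lay between 3.74 and 8.08 CPM in all 30 libraries and was called in none of the 19 comparisons, though without d4T 24h replicate 2 it was higher with AZT than with d4T at 24h (0.69, edgeR adjusted p = 0.008). *cyp-35B1* (WBGene00019472, chromosome V, 3939032 to 3941237), raised in insulin receptor mutants through DAF-16, starts right after *cyp-35A5* and overlaps K07C6.16 on the other strand. At 24h it had 7.83, 0.887 and 7.24 CPM with d4T, where replicate 2 stood apart, against 2.45, 1.55 and 1.07 CPM with DMSO. The value of 1.68 with d4T did not pass (edgeR adjusted p = 0.041), and without d4T replicate 2 it was 2.15 (adjusted p = 3.7e-04). The next gene in the run, *cyp-35B2*, rose with d4T at 24h (3.0, adjusted p = 0.0093, and 3.4 without d4T replicate 2) and with AZT at 72h (1.96, adjusted p = 0.0059).

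**Figure D3:**
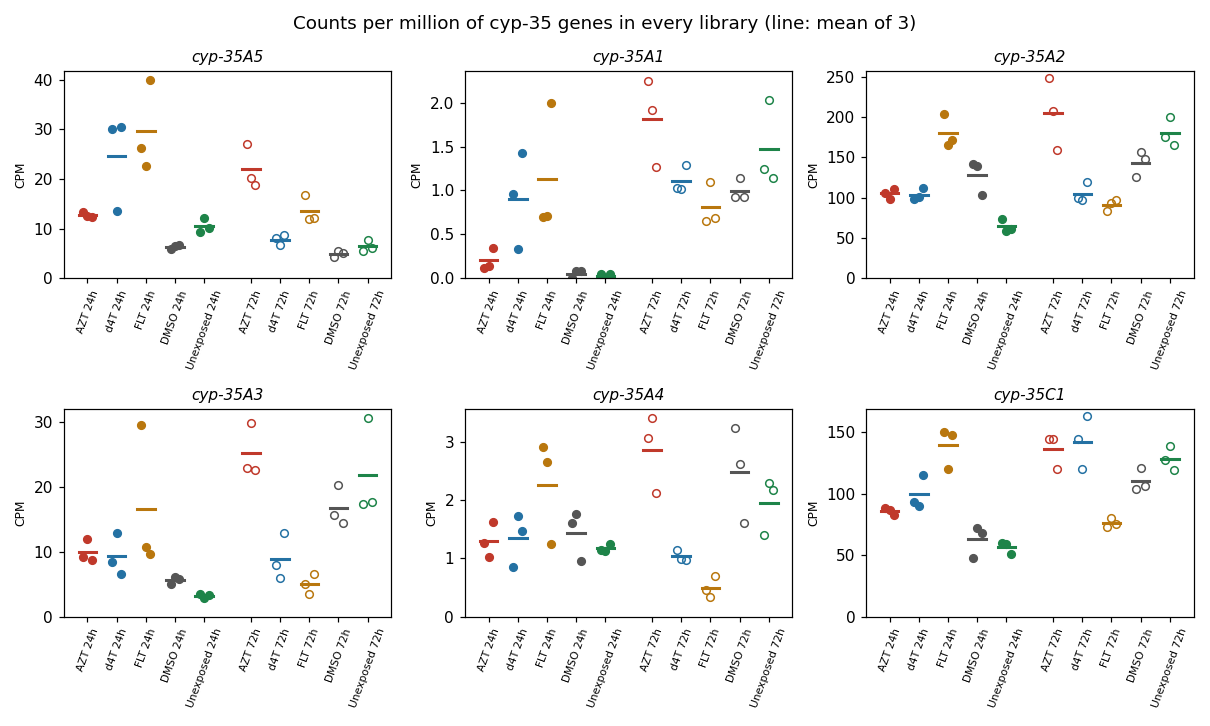
Points give the CPM of 6 *cyp-35* genes in every library (filled at 24h, open at 72h) and lines the mean of 3. *cyp-35A5* is above DMSO in every analogue group, at 18.8 to 27.1 CPM with AZT at 72h against 4.37 to 5.41 CPM with DMSO, while *cyp-35A3* and *cyp-35A4* are lowest with FLT at 72h.

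The *cyp-13* family held many of the falls at 24h. Of its 14 genes 13 were tested, and at 24h 4 fell with AZT, 2 with d4T and 4 with FLT, with 1 rise, that of *cyp-13B1* with FLT. Of all genes 9.15%, 2.24% and 9.39% fell in these comparisons. The genes *cyp-13A1* to *cyp-13A9* lie side by side on chromosome II (9779181 to 9807569), and 3 of the 8 tested there fell with AZT. *cyp-13A5* (WBGene00011672, 9798277 to 9800362) had 3.2, 3.13 and 4.21 CPM with AZT, 7.33, 6.88 and 5.92 CPM with d4T and 8.57, 7.63 and 3.44 CPM with FLT at 24h, against 55.6, 62.8 and 25.9 CPM with DMSO. Unexposed nematodes had 5.36, 2.64 and 4.47 CPM, so that the DMSO libraries stood above all others at 24h. Against DMSO the log2 fold changes were -3.76 with AZT (standard error 0.42, edgeR adjusted p = 1.4e-05), -2.84 with d4T (0.39, adjusted p = 4.5e-05, and -2.89 without d4T replicate 2) and -2.88 with FLT (0.39, adjusted p = 2.6e-05). With DMSO it was higher than in unexposed nematodes by 3.53 (standard error 0.41, edgeR adjusted p = 3.7e-06). Against unexposed nematodes d4T gave 0.69 and FLT 0.65, of the opposite sign, and AZT gave -0.23, none of them called.

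*cyp-13A7* (WBGene00000372, 9803620 to 9805513), known for its induction by rifampicin, followed the same pattern at a lower level. It had 0.242, 0.437 and 0.132 CPM with AZT, 1.31, 0.111 and 1.9 CPM with d4T and 0.350, 1.02 and 0.967 CPM with FLT at 24h, against 5.95, 4.54 and 1.36 CPM with DMSO. Unexposed nematodes were lowest, at 0.0454, 0.0433 and 0.0894 CPM, which is 4 reads in all. Against DMSO the log2 fold changes were -3.92 with AZT (standard error 0.74, edgeR adjusted p = 7.8e-04) and -2.32 with FLT (0.64, adjusted p = 0.0088), and d4T gave -1.79 (adjusted p = 0.054, and -1.3 without d4T replicate 2). The fall with FLT was lost without each library except DMSO replicate 3 and with library totals (adjusted p = 0.017). With DMSO it was higher than in unexposed nematodes by 5.93 (standard error 0.87, edgeR adjusted p = 4.8e-05), the highest fold change of a P450 in that comparison. Against unexposed nematodes FLT raised it by 3.61 (adjusted p = 0.0038) and d4T by 4.13 (adjusted p = 9.1e-04), and AZT gave 2.0 and did not pass.

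*cyp-13A4* (WBGene00011671, 9795756 to 9797740) had 1.03, 0.728 and 1.1 CPM with AZT, 0.152, 0.665 and 0.348 CPM with d4T and 0.641, 0.204 and 0.161 CPM with FLT at 24h, against 6.12, 4.34 and 1.94 CPM with DMSO. The log2 fold changes were -2.09, -3.41 and -3.62 (edgeR adjusted p = 0.0067, 3.4e-04 and 1.4e-04), the first of these lost without each library except DMSO replicate 3, and the value with d4T was -3.99 without d4T replicate 2. Against unexposed nematodes, at 1.32, 0.865 and 1.61 CPM, none of the 3 was called with all libraries. Without d4T replicate 2 the fall with d4T was called against them too (-2.29, edgeR adjusted p = 0.0036). *cyp-13A2* (WBGene00011676, 9783384 to 9787629), in the same run, rose with AZT at 72h, with 9.16, 10 and 11.8 CPM against 3.36, 1.99 and 4.5 CPM with DMSO (1.65, adjusted p = 1.6e-04). The pseudogene *cyp-13A9* fell with FLT at 24h, on 2 reads against 43 with DMSO, a ratio of 0.0559 with a counting interval of 0.00656 to 0.215.

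The members of the family treated next lie outside the run on chromosome II. *cyp-13B1* (WBGene00008519, chromosome X, 13406674 to 13409643) had 7.93, 14 and 26.3 CPM with FLT at 24h, against 5.45, 3.23 and 2.97 CPM with DMSO. At 72h it had 10.3, 11 and 7.3 CPM with AZT, 3.64, 3.86 and 4.76 CPM with d4T and 14.9, 15 and 14 CPM with FLT, against 2.06, 1.57 and 2.01 CPM with DMSO. No analogue library overlapped DMSO in these comparisons. It rose by 2.06 with FLT at 24h (standard error 0.47, edgeR adjusted p = 0.0023, lost without FLT replicate 3 or DMSO replicates 2 or 3), by 2.34 with AZT at 72h (0.49, adjusted p = 2.4e-04) and by 2.96 with FLT at 72h (0.49, adjusted p = 1.7e-04). With d4T at 24h it had 14.3, 1.89 and 18.5 CPM, and the value of 1.59 (adjusted p = 0.024) became 2.07 (adjusted p = 2.2e-05) without replicate 2. *cyp-13A11* (WBGene00008809, chromosome III, 13021006 to 13024045) had 0.107, 0.0784 and 0.0386 CPM with AZT and 0.0651, 0.0845 and 0.287 CPM with FLT at 72h, against 1.56, 1.65 and 1.64 CPM with DMSO. The log2 fold changes were -4.33 with AZT (standard error 0.62, edgeR adjusted p = 5.7e-06) and -3.35 with FLT (0.61, adjusted p = 5.5e-04), while d4T, at 0.995, 0.373 and 1.05 CPM, gave -1.0 and did not pass. At 24h AZT gave 0 reads against 24 with DMSO, at least 6.37-fold lower with a floor of 3 counts over the group, a call lost without AZT 24h replicate 1. Unexposed nematodes had 1 read at 24h, so that DMSO was called above them, at a ratio of 24.3 with a counting interval of 3.96 to 1000. Its neighbour *cyp-13A12* (WBGene00008810), which acts in the response to reoxygenation below HIF-1, was called in no comparison, at 0.440 to 3.39 CPM.

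The *cyp-33* family, the largest with 18 genes, had 13 tested genes. Of these 4 fell and none rose with AZT at 24h, where 9.15% of all genes fell. At 72h 4 rose and none fell with AZT, where 27.2% of all genes rose and 21.6% fell. *cyp-33C8* (WBGene00019967, chromosome V, 3800782 to 3803542) was the only P450 called in all 6 comparisons with DMSO. At 24h it had 7.62, 6.41 and 6.85 CPM with AZT, 9.8, 8.37 and 9.9 CPM with d4T and 8.74, 9.11 and 12.5 CPM with FLT, against 22.2, 16.2 and 14.2 CPM with DMSO. At 72h it had 23.4, 18.3 and 19.1 CPM with AZT, 13, 11.9 and 10.3 CPM with d4T and 15.4, 14.6 and 17.3 CPM with FLT, against 7.57, 7.36 and 6.7 CPM with DMSO. The analogue libraries lay below all DMSO libraries at 24h and above all of them at 72h. The log2 fold changes at 24h were -1.33 (standard error 0.19, adjusted p = 9.7e-05) with AZT, -0.9 (0.18, adjusted p = 0.0016) with d4T and -0.79 (0.18, adjusted p = 0.0026) with FLT in edgeR's test. At 72h they were 1.49 (0.19, adjusted p = 8.3e-07), 0.7 (0.18, adjusted p = 0.0075) and 1.13 (0.19, adjusted p = 1.5e-04). The call with d4T at 72h was lost without any of the 6 libraries (adjusted p up to 0.038), that with d4T at 24h without DMSO replicate 1 (and -0.85, still called, without d4T replicate 2), and that with FLT at 24h without DMSO replicate 1 or FLT replicate 1 and with library totals. Unexposed nematodes had 8.36, 8.0 and 5.94 CPM at 24h and 9.88, 8.27 and 8.39 CPM at 72h. Against them no analogue was called at 24h (d4T 0.33 and FLT 0.44, of the opposite sign, and AZT -0.1), and at 72h AZT (1.2) and FLT (0.83) were. At 72h AZT was above d4T by 0.79 (edgeR adjusted p = 0.0034, lost without AZT replicate 1 or any d4T library), and AZT and FLT differed by 0.36 (95% interval -0.01 to 0.74).

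*cyp-33C4* (WBGene00018413, chromosome V, 2236140 to 2237999) turned in the same way with AZT. It had 3.57, 1.97 and 2.55 CPM with AZT at 24h, against 8.9, 6.75 and 3.8 CPM with DMSO, and 4.7, 4.7 and 4.21 CPM with AZT at 72h, against 0.715, 1.44 and 1.75 CPM with DMSO. The log2 fold changes were -1.26 (edgeR adjusted p = 0.0096, lost without each library except DMSO replicate 3) and 1.79 (adjusted p = 1.2e-04). *cyp-33D3* (WBGene00012448, chromosome V, 18832264 to 18837225) fell with AZT at 24h only, with 0.967, 0.218 and 1.1 CPM against 4.0, 3.64 and 2.02 CPM with DMSO (-2.02, adjusted p = 0.0052, lost without DMSO replicates 1 or 2 or AZT replicates 1 or 2). With DMSO it was higher than in unexposed nematodes by 1.89 (edgeR adjusted p = 0.0061, lost without unexposed replicates 2 or 3 or DMSO replicates 1 or 2). *cyp-33E2* (WBGene00018334), which serves eicosanoid synthesis in the pharynx, was called against DMSO with no analogue. It was lower with AZT (10.3, 8.23 and 10.6 CPM) than with FLT (15.5, 21.3 and 26 CPM) at 24h (-1.11, edgeR adjusted p = 0.0012, lost without AZT replicate 2 or FLT replicate 3).

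Of 9 genes of the *cyp-34* family 8 were tested, and 3 fell with AZT at 24h, where 9.15% of all genes fell. *cyp-34A9* (WBGene00015044, chromosome V, 3968134 to 3970540), raised in insulin receptor mutants through DAF-16, overlaps B0213.24 on the other strand. It had 8.1, 8.16 and 11.2 CPM with AZT at 24h, against 70.7, 44.1 and 11.6 CPM with DMSO. The DMSO libraries spread widely, with replicate 3 close to AZT and to unexposed nematodes (12.1, 10.6 and 13.1 CPM). The log2 fold change of -2.2 (standard error 0.51, edgeR adjusted p = 0.0035) was lost without DMSO replicates 1 or 2 or AZT replicates 1 or 2, and against unexposed nematodes it was -0.38. At 72h *cyp-34A9* had 21.8, 13.8 and 11.3 CPM with AZT, against 74.6, 75.5 and 68.6 CPM in unexposed nematodes (-2.22, adjusted p = 0.0011), and was not called against DMSO (13.9, 25.9 and 25.2 CPM). *cyp-34A1* had 2 reads with AZT at 24h against 63 with DMSO, a ratio of 0.0399 with a counting interval of 0.00473 to 0.15. At 72h it had 0.392, 0.510 and 0.579 CPM with AZT, against 0, 0.127 and 0.0372 CPM with DMSO (3.07, edgeR adjusted p = 0.0056).

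In the remaining CYP2-like families *cyp-36A1* stood out. It is a target of HIF-1 that acts on behaviour and stress resistance through the receptor NHR-46 (WBGene00007913, chromosome I, 8341682 to 8346023, overlapping *figo-1* on the other strand). At 24h it had 9.43, 9.1 and 7.15 CPM with AZT, 17.8, 13 and 22.4 CPM with d4T and 22.4, 21.3 and 20.7 CPM with FLT, against 21.9, 17.1 and 14.5 CPM with DMSO. At 72h it had 28.5, 25.4 and 24.9 CPM with AZT, 7.12, 9.18 and 11.1 CPM with d4T and 21.4, 29 and 32.7 CPM with FLT, against 9.42, 7.11 and 6.33 CPM with DMSO. AZT lay below DMSO at 24h and above it at 72h, FLT above it at 72h, and d4T overlapped it at both times. It fell by 1.06 with AZT at 24h (standard error 0.21, edgeR adjusted p = 0.0012, lost without DMSO replicate 1 or AZT replicate 3), and rose by 1.79 with AZT (0.21, adjusted p = 4.8e-07) and by 1.86 with FLT (0.21, adjusted p = 1.3e-06) at 72h. At 72h AZT and FLT differed by -0.08 (95% interval -0.5 to 0.34), and d4T was lower than FLT (-1.6, adjusted p = 5.1e-06). Against unexposed nematodes, at 7.09 to 8.69 CPM at 24h and 8.3 to 8.71 CPM at 72h, the rises at 72h were 1.62 and 1.69, and AZT at 24h gave 0.12, of the opposite sign to that against DMSO. Against DMSO the RNA of *hif-1* changed with AZT by -0.95 at 24h (edgeR adjusted p = 0.0016, lost without DMSO replicate 1 or AZT replicates 1 or 2) and 1.15 at 72h (adjusted p = 3.5e-05). With FLT at 72h *hif-1* gave 0.36 and was not called (edgeR adjusted p = 0.23). The part of *hif-1* in the changes of *cyp-36A1* was not tested.

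*cyp-14A5* (WBGene00000373, chromosome V, 5421018 to 5423282) rose with AZT at 72h, with 50.1, 45.6 and 38.3 CPM against 7.91, 7.74 and 5.47 CPM with DMSO (2.67, standard error 0.32, edgeR adjusted p = 5.5e-07). With d4T it had 8.39, 12.6 and 8.92 CPM and with FLT 6.06, 10.8 and 9.98 CPM at 72h, so that AZT was above them by 2.16 and 2.32, both called. *cyp-14A3* (WBGene00010707, chromosome X, 13271837 to 13274202, overlapping 2 genes on the other strand) moved the other way, with 0.356, 0.118 and 0.386 CPM with AZT at 72h against 0.967, 3.34 and 1.9 CPM with DMSO (-2.82, adjusted p = 0.001, lost without DMSO replicate 2). It was highest in unexposed nematodes at 72h, at 10.5, 19.9 and 8.36 CPM, and DMSO was lower than these (-2.64, edgeR adjusted p = 0.0019, lost without unexposed replicate 2 or DMSO replicates 1 or 3). *cyp-14A1* (WBGene00010705, chromosome X, 13265041 to 13267355) fell with d4T at 24h, with 0.707, 1.39 and 1.28 CPM against 5.01, 3.35 and 3.34 CPM with DMSO (-1.78, adjusted p = 7e-04, and -1.96 without d4T replicate 2). *cyp-23A1* (WBGene00015135, chromosome II, 4512211 to 4516133) rose with AZT at 72h, with 3.39, 3.61 and 2.82 CPM against 0.379, 0.508 and 1.0 CPM with DMSO (2.35, adjusted p = 0.0011, lost without DMSO replicate 1).

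The *cyp-31* family gave 3 of the 6 falls with AZT at 72h and both of those with d4T, where 21.6% and 5.86% of all genes fell. *cyp-31A2* (WBGene00010354, chromosome IV, 11403961 to 11406091) and *cyp-31A3* (WBGene00021200, chromosome IV, 4761049 to 4762885) serve the permeability barrier of the eggshell and are close copies. Reads that aligned to several places were not counted, so that the split between these copies and *cyp-31A5* (WBGene00013381, chromosome IV, 13401289 to 13403842, with Y62E10A.19 on its other strand) is uncertain. *cyp-31A2* had 35.7, 55 and 66.4 CPM with AZT at 72h, against 155, 160 and 160 CPM with DMSO. *cyp-31A3* had 18.3, 27 and 34 CPM with AZT and 42.6, 39.2 and 52.8 CPM with d4T, against 129, 120 and 111 CPM with DMSO. *cyp-31A5* had 21.2, 31.6 and 45.2 CPM with AZT and 59, 53.6 and 65.1 CPM with d4T, against 156, 152 and 156 CPM with DMSO. All AZT and d4T libraries named here were below all DMSO libraries. With AZT the log2 fold changes were -1.59 (standard error 0.36, adjusted p = 5.8e-04), -2.18 (0.37, adjusted p = 3.1e-05) and -2.24 (0.39, adjusted p = 3.4e-05) in edgeR's test. With d4T *cyp-31A3* changed by -1.42 (adjusted p = 0.0064) and *cyp-31A5* by -1.38 (adjusted p = 0.0094), both lost without any of the 6 libraries and with library totals, and *cyp-31A2* gave -0.83 (adjusted p = 0.084). FLT gave -0.51 for *cyp-31A3* (95% interval -1.24 to 0.23).

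The mitochondrial type P450 *cyp-44A1* (WBGene00000375, chromosome II, 5504044 to 5505975, overlapping *npp-24* on the same strand) also fell with AZT at 72h, with 31.4, 39.4 and 46.4 CPM against 87.5, 81.3 and 83.2 CPM with DMSO (-1.1, standard error 0.23, edgeR adjusted p = 2.3e-04). Markers of the germline and oocytes moved with these genes. Of 12 markers 10 fell with AZT at 72h (median log2 fold change -1.33) and 1 with d4T (median -0.72), and their summed level was 2865 to 3621 CPM with AZT and 4462 to 5088 CPM with d4T, against 8066 to 8426 CPM with DMSO. None of these markers was at 0 in a group, and their part in the falls of *cyp-31A2*, *cyp-31A3*, *cyp-31A5* and *cyp-44A1* was not tested. Unexposed nematodes lay between AZT and DMSO at 72h for the markers, at 5869 to 7195 CPM, and for *cyp-31A3*, at 50, 67.5 and 48.8 CPM. Against them AZT lowered *cyp-31A2* (-1.17, edgeR adjusted p = 0.0098) and *cyp-44A1* (-0.82, adjusted p = 0.0053), and *cyp-31A3* (-1.07) and *cyp-31A5* (-1.11) did not pass. In the d4T 24h replicate 2 library *cyp-31A2* was at 154 CPM and *cyp-44A1* at 75.1 CPM, beside 32.9 and 44.5 CPM and 27.9 and 33.8 CPM in the other d4T 24h libraries, and 151 to 173 CPM and 75.9 to 80 CPM with AZT. Without it d4T lowered both at 24h against DMSO, with log2 fold changes of -1.2 (adjusted p = 6.4e-04) and -0.81 (adjusted p = 2.7e-04). The pseudogene *cyp-31A1* (WBGene00000374, chromosome IV, 9101773 to 9103851) went apart from its family, rising with FLT at 72h with 27.3, 24.3 and 23.5 CPM against 9.76, 9.73 and 12.9 CPM with DMSO (1.21, standard error 0.15, edgeR adjusted p = 3e-06).

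**Figure D4:**
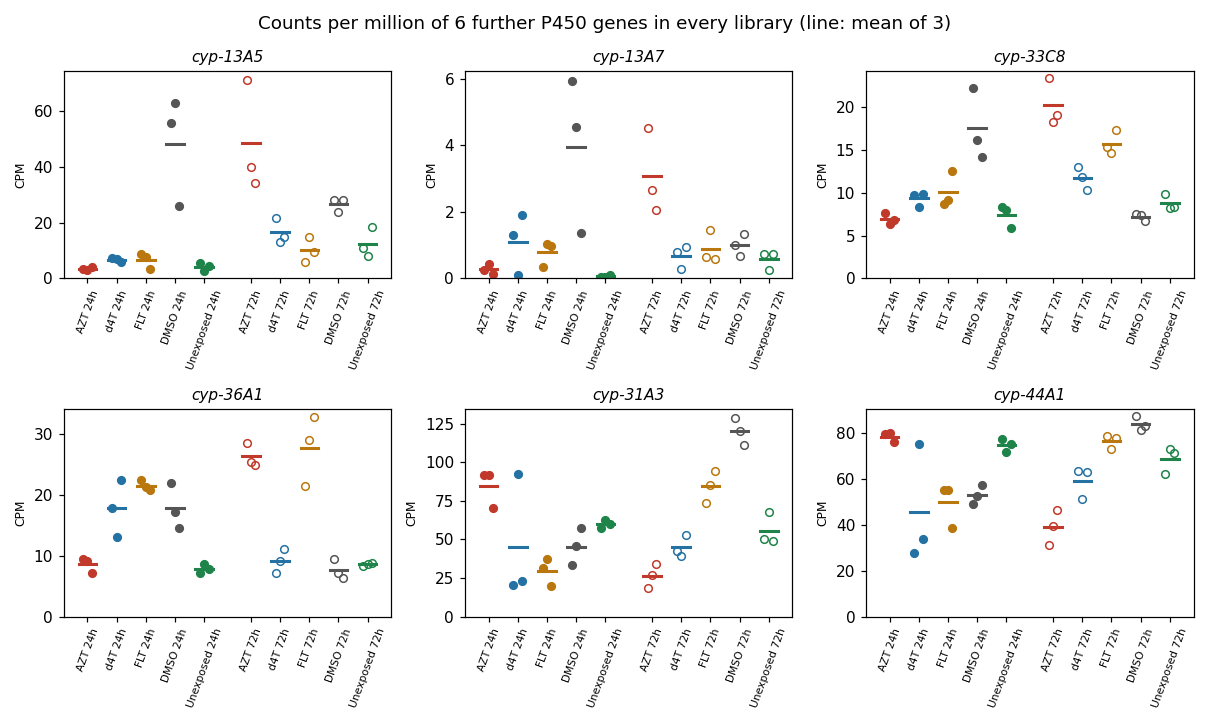
Points give the CPM of 6 further P450s in every library (filled at 24h, open at 72h) and lines the mean of 3. *cyp-13A5* and *cyp-13A7* are highest with DMSO among the 24h groups, *cyp-33C8* and *cyp-36A1* with AZT lie below DMSO at 24h and above it at 72h, and *cyp-31A3* and *cyp-44A1* are lowest with AZT among the 72h groups.

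Genes of other CYP4-like families rose with AZT at 72h. *cyp-29A3* (WBGene00021412, chromosome V, 59239 to 63633), an epoxygenase of polyunsaturated fatty acids, had 11.3, 10.1 and 8.85 CPM with AZT at 72h, against 2.4, 1.35 and 1.53 CPM with DMSO (2.51, standard error 0.41, edgeR adjusted p = 1.7e-05). *cyp-29A4* (WBGene00007140, chromosome V, 9654755 to 9658120) fell at 24h with all 3 analogues, at 5.08, 6.48 and 6.67 CPM with AZT, 3.23, 4.49 and 3.06 CPM with d4T and 3.56, 5.55 and 3.65 CPM with FLT, against 12.5, 14.4 and 9.74 CPM with DMSO. The values were -1.0 (adjusted p = 0.0036, lost without each library except DMSO replicate 3), -1.77 (adjusted p = 3.9e-05, and -1.98 without d4T replicate 2) and -1.52 (adjusted p = 9.1e-05). Against unexposed nematodes (11.3, 9.17 and 8.58 CPM) the falls with d4T (-1.43) and FLT (-1.18) were also called. At 72h *cyp-29A4* rose with AZT, with 21.7, 18.2 and 17.9 CPM against 6.52, 8.04 and 6.59 CPM with DMSO (1.45, adjusted p = 1.4e-05). *cyp-42A1* (WBGene00013585, chromosome V, 18912036 to 18918117) had 4.23, 4.3 and 4.26 CPM with AZT at 24h, against 14.9, 11.3 and 9.54 CPM with DMSO, and 12.8, 14.7 and 12.2 CPM with AZT and 6.09, 7.32 and 4.55 CPM with d4T at 72h, against 2.69, 2.54 and 1.86 CPM with DMSO. It fell by 1.48 with AZT at 24h (edgeR adjusted p = 0.0032, lost without DMSO replicate 1 or any AZT library), rose by 2.48 with AZT (adjusted p = 3.3e-06) and by 1.34 with d4T (adjusted p = 0.0062, lost without each library except d4T replicate 3) at 72h, and FLT gave 1.15 (adjusted p = 0.024).

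In the *cyp-25* family, of the CYP3-like clan, 5 of 6 genes were tested. *cyp-25A1* (WBGene00007963, chromosome III, 3832591 to 3834586) had 39.9, 80.6 and 82.4 CPM with FLT at 24h, against 19.4, 26 and 30.5 CPM with DMSO (1.42, standard error 0.24, edgeR adjusted p = 2.2e-04). Unexposed nematodes at 24h, at 57, 76.6 and 60 CPM, were close to FLT (0.07, adjusted p = 0.83), and DMSO was lower than these (-1.35, adjusted p = 3.2e-04). *cyp-25A3* (WBGene00014697, chromosome III, 3837538 to 3839735), in the same run, rose by 0.91 with AZT at 72h (edgeR adjusted p = 0.0073), a call lost with relative log expression factors, with DESeq2 and without each library except DMSO replicate 2.

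P450s also differed between DMSO and unexposed nematodes, which cannot be told apart from a difference between their lanes. With DMSO 11 of the 69 P450s were higher and 4 lower than in unexposed nematodes at 24h (9.01% and 3.56% of all genes). At 72h 0 were higher and 9 lower (5.71% and 6.01% of all genes). At 72h 33 of the 69 had an unadjusted p under 0.05 in edgeR's test, and DESeq2 called 1 higher and 11 lower (1386 and 1134 of all genes). The count at 24h was 9, 8 and 9 without unexposed replicate 2, unexposed replicate 3 and DMSO replicate 1 (5.79%, 6.69% and 6.34% of all genes). That at 72h was 4, 5, 3 and 3 without unexposed replicates 1 and 2 and DMSO replicates 1 and 3 (5.53%, 7.01%, 5.46% and 7.07% of all genes), and 14 with library totals (14.1%). *cyp-37B1* (WBGene00009226, chromosome V, 16278116 to 16280616, overlapping F28G4.2) had 10.2, 4.46 and 1.16 CPM with DMSO at 24h, against 0.636, 0 and 0.313 CPM in unexposed nematodes (4.04, edgeR adjusted p = 0.002, lost without unexposed replicates 2 or 3 or DMSO replicate 1). *cyp-29A2* (WBGene00011830, chromosome V, 11217583 to 11219911) and *cyp-29A3* fell with DMSO at 24h, with log2 fold changes of -1.66 (adjusted p = 2.8e-04) and -1.75 (adjusted p = 0.0018, lost without unexposed replicate 3 or DMSO replicate 2). *cyp-34A7* (-2.85) and *cyp-35B1* (-1.92) fell with DMSO at 72h, the second of these a call lost without any of the 6 libraries (adjusted p up to 0.046). Marker genes differed here too. At 24h 8 of 12 moulting and 4 of 8 intestinal markers were higher with DMSO, and 1 of 6 neuronal markers was lower. At 72h 4 of 5 muscle and 2 of 6 neuronal markers were lower, while 3 of 6 tested sperm and 1 of 12 germline markers were higher. Their part in the P450 differences was not tested.

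Against unexposed nematodes, AZT at 24h changed 0 of the 69 P450s (0.224% of all genes rose and 0.48% fell), with 21 at an unadjusted p under 0.05 in edgeR's test. d4T raised 16 and lowered 6 at 24h (19.5% and 12.7% of all genes), or 27 and 12 without d4T replicate 2, where 56.9% of all genes were called, and FLT raised 16 and lowered 5 (17.2% and 12.3%). At 72h AZT raised 13 and lowered 11 (18.6% and 13.2%), d4T raised 0 and lowered 2 (0.0997% and 0.106%, with 25 of the 69 at an unadjusted p under 0.05) and FLT raised 6 and lowered 17 (5.96% and 6.51%). Marker genes moved with these counts. Moulting and cuticle genes summed to 117 to 176 CPM with AZT, 159 to 1022 CPM with d4T, 369 to 1153 CPM with FLT, 467 to 853 CPM with DMSO and 136 to 195 CPM in unexposed nematodes at 24h. Intestinal genes summed to 1404 to 2056 CPM with AZT, 1585 to 5358 CPM with d4T, 2790 to 3553 CPM with FLT, 2787 to 3786 CPM with DMSO and 1797 to 1909 CPM in unexposed nematodes at 24h. Against DMSO 6 of 12 moulting and 4 of 8 intestinal markers fell with AZT at 24h, 10 and 6 rose with AZT at 72h, and none of either list was at 0 in a group. At 72h the moulting genes summed to 566 to 710 CPM with AZT and the intestinal genes to 1315 to 2190 CPM, against 96.8 to 120 CPM and 602 to 710 CPM with DMSO. Of 5 muscle and 6 neuronal markers 5 and 5 rose with AZT at 72h, 3 and 3 with d4T and 4 and 1 with FLT. At 24h 1 and 1 rose with d4T, and 2 muscle markers fell and 1 neuronal marker rose with FLT. Of all genes 27.2%, 5.82% and 4.52% rose with AZT, d4T and FLT against DMSO at 72h. At 24h 4.07% rose with d4T, and 5.74% rose and 9.39% fell with FLT. Of 12 germline and oocyte markers 6 fell with FLT at 24h (median log2 fold change -1.15), with sums of 1367 to 2470 CPM against 3515 to 5141 CPM with DMSO. Of 6 sperm markers tested 1 fell with d4T and 1 rose with FLT at 72h. The part of the marker genes in the changes of the P450s was not tested.

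The 3 pairs of analogues were also compared with each other at the same dose and time, and comparisons at a time share libraries. At 24h AZT was higher than FLT at 3 and lower at 25 of the 69 P450s (17.4% and 23.1% of all genes), and higher than d4T at 3 and lower at 15 (9.49% and 20.0%). d4T was higher than FLT at 0 and lower at 1, *cyp-35A2* (4.38% and 1.45% of all genes), with 9 at an unadjusted p under 0.05 in edgeR's test and 2 called lower by DESeq2. Of all genes DESeq2 called 1425 higher and 409 lower there. At 72h AZT was higher than FLT at 13 and lower at 6 (22.2% and 18.3%), and higher than d4T at 11 and lower at 1, *cyp-13A11* (8.05% and 3.98%). d4T was higher than FLT at 3 and lower at 4 at 72h (5.76% and 5.43%). Of these counts, that of AZT against d4T at 24h, 18 in all, was 37 without d4T 24h replicate 2, where 61.9% of all genes were called. It was 5 and 2 without d4T replicates 1 and 3 (4.73% and 4.98% of all genes). Without AZT replicates 1, 2 and 3 it was 7, 7 and 10 (6.39%, 7.56% and 14.8%). That of AZT against FLT at 24h, 28 in all, was 17 without AZT replicate 2 (26.3% of all genes) and 11 without FLT replicate 3 (21.5%). That of d4T against FLT at 24h was 5 without d4T replicate 2 (17.4%). At 72h that of AZT against d4T, 12 in all, was 5 and 7 without AZT replicates 1 and 2 (3.5% and 5.51% of all genes). It was 6 without any d4T library (3.71% to 5.49%). That of d4T against FLT at 72h, 7 in all, was 4 without d4T replicate 1 (7.2%) or FLT replicate 2 (7.97%). Marker genes moved with these counts too. At 24h 12 of 12 germline markers were higher with AZT than with FLT, and 8 of 12 moulting and 4 of 8 intestinal markers were lower. At 72h 9 moulting and 5 intestinal markers were higher and 6 germline markers lower with AZT than with FLT. Against d4T 9 moulting and 4 intestinal markers were lower with AZT at 24h, and 1 and 6 were higher at 72h. Their part in the P450 counts was not tested.

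The effect of each analogue was also compared between the times. For AZT the effect at 72h was above that at 24h at 26 of the 69 and below it at 6 (29.3% and 23.7% of all genes), for d4T at 5 and 2 (4.93% and 3.08%) and for FLT at 6 and 7 (6.17% and 3.56%). In either direction these were 46.4%, 10.1% and 18.8% of the P450s for AZT, d4T and FLT, where 53.0%, 8.01% and 9.73% of all genes differed. The 6 that went down with AZT were *cyp-31A2*, *cyp-31A3*, *cyp-31A5*, *cyp-44A1*, *cyp-14A3* and *cyp-29A2*. With AZT 9 P450s were called at both times (13%, where 6.4% of all genes were), 7 of them lower at 24h and higher at 72h (*cyp-29A4*, *cyp-33C4*, *cyp-33C8*, *cyp-34A1*, *cyp-36A1*, *cyp-42A1* and *cyp-43A1*), with *cyp-35A5* higher and *cyp-13A11* lower at both. The 7 are 10.1% of the P450s, and 5.7% of all genes were lower at 24h and higher at 72h with AZT. The falls at 24h hold against DMSO only. Against unexposed nematodes none of the 69 was called with AZT at 24h (0.224% of all genes rose and 0.48% fell). The analogues share the same DMSO libraries in these contrasts, and the change with time was not tested with unexposed nematodes as the control. The count for d4T was 3 to 4 without DMSO 24h replicates 1 or 2, DMSO 72h replicate 2, d4T 24h replicate 3 or d4T 72h replicate 1. In those refits 5.2% to 7.81% of all genes were called.

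**Figure D5:**
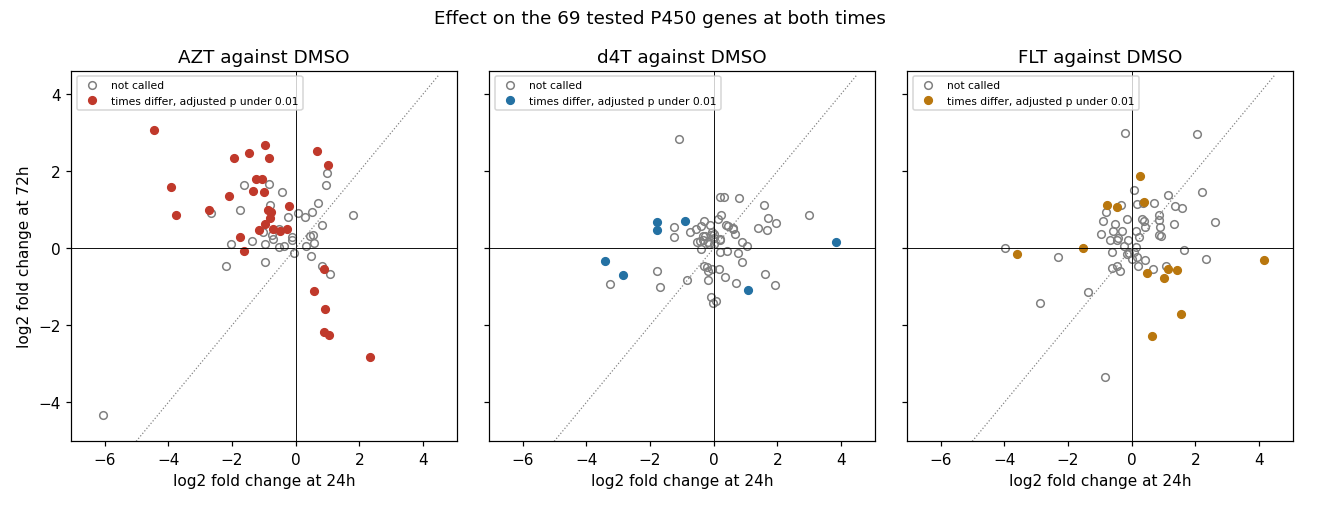
Each point is 1 of the 69 tested P450s, with its log2 fold change against DMSO at 24h (horizontal) and 72h (vertical) for AZT, d4T and FLT, filled where the times differed at an adjusted p under 0.01, and the dotted line marks equal effects. With AZT 32 points are filled and many lie in the upper left, lower at 24h and higher at 72h, while 7 are filled with d4T and 13 with FLT. Against unexposed nematodes no P450 was called with AZT at 24h.

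In the controls themselves P450s also changed between 24h and 72h. In unexposed nematodes 16 of the 69 were higher and 4 lower at 72h than at 24h (8.75% and 8.94% of all genes), and with DMSO 7 were higher and 16 lower (13.9% and 19.2%). With DMSO 8 of 8 intestinal (median log2 fold change -1.81), 6 of 12 moulting and 4 of 5 muscle markers were also lower at 72h, and their part was not tested. *cyp-14A3* was at 10.5, 19.9 and 8.36 CPM at 72h, against 0.182, 0.649 and 0.0447 CPM at 24h, in unexposed nematodes (5.43, edgeR adjusted p = 2.5e-06), and rose by 5.0 with DMSO. *cyp-35A1* had 135 reads in unexposed nematodes at 72h against 2 at 24h, a ratio of 49.7 with a counting interval of 13.5 to 415. *cyp-13A11* had 134 reads at 72h against 1 at 24h, a ratio of 98.7 with a counting interval of 17.4 to 3930. *cyp-35A2* (1.48), *cyp-35A3* (2.76) and *cyp-35C1* (1.18) were also higher at 72h in unexposed nematodes, and *cyp-29A3* (-2.31), *cyp-13A2* (-1.28) and *cyp-25A3* (-1.28) lower. With library totals the split in unexposed nematodes was 21 higher and 2 lower (2186 and 894 of all genes).

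Genes that work with P450s were taken from lists of redox partners, regulators, flavin-containing monooxygenases and haem genes. *emb-8*, the NADPH-P450 reductase, fell with FLT at 24h, at a mean of 96.8 CPM against 171 CPM with DMSO (-0.82, standard error 0.13, edgeR adjusted p = 1e-04), and was called in no other comparison of an analogue with DMSO. Germline markers, whose part was not tested, fell there too. The cytochrome b5 gene *cytb-5.1* rose with FLT at 24h (1.07, adjusted p = 0.0097), a call lost without each library except FLT replicate 1. *daf-9*, the P450 that makes the steroid ligands of the receptor DAF-12, rose with AZT at 72h, at a mean of 2.09 CPM against 0.99 CPM with DMSO (1.07, adjusted p = 0.0093), a call lost with relative log expression factors (0.95, adjusted p = 0.019) and without each library except DMSO replicate 2. Of 11 tested regulators of xenobiotic and steroid genes 5 rose and 2 fell with AZT at 72h, where 27.2% and 21.6% of all genes did. At 24h 2 fell with AZT and 2, *skn-1* (-0.62) and *mdt-15* (-0.65), with FLT, and at 72h *daf-12* (0.88) and *nhr-48* (0.89) rose with d4T and *daf-12* (0.74) with FLT. The rises with AZT at 72h include the nuclear receptor genes *daf-12* (1.45), *nhr-8* (1.92) and *nhr-48* (0.96), while *nhr-8* fell by 2.25 with AZT at 24h (edgeR adjusted p = 2.3e-04). Of the 5 flavin-containing monooxygenases, another class of oxidising enzymes, 3 rose with AZT at 72h, *fmo-1* (1.98), *fmo-2* (2.8, lost without DMSO replicates 1 or 3 or AZT replicate 1) and *fmo-4* (1.02), as did 1 with d4T and 2 with FLT at 72h. Of 8 genes of haem uptake and transport 5 rose with AZT at 72h, among them *hrg-1* (1.17) and *mrp-5* (1.0), beside the 27.2% of all genes. At 24h *hrg-1* (0.97) and *hrg-7* (1.09) rose with AZT and *hrg-1* (1.26) and *hrg-4* (1.18) with FLT, and at 72h *hrg-1* rose with FLT (1.12) and *hrg-7* fell with d4T (-1.12). Of all genes 1.07% rose with AZT and 5.74% with FLT at 24h. At 72h 5.82% rose and 5.86% fell with d4T, and 4.52% rose with FLT.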

How the data were processed

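Counts of reads per gene were deposited for 30 libraries. Per the submitters' processing notes and the study's methods, the authors used CASAVA 1.8.2, Trimmomatic 0.32, TopHat2 2.0.8 and Bowtie2 2.1.0 against WBcel235 with Ensembl 75, and HTSeq for the counts deposited. The strand setting is not given in the sources used here, so that reads of overlapping genes on both strands cannot be told apart, and 24 P450s have exons that overlap a gene on the other strand. Reads that were not uniquely aligned were not counted (7.53 to 23.62% of the total, median 11.55), which can lower close copies, and 10.5 to 26.51% (median 14.51) fell in the 5 entries for reads assigned to no gene, left out of library sizes. Coordinates are those of WBcel235 in Ensembl 115, and 6 pseudogenes were named through RefSeq coordinates.

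Genes were kept by filterByExpr (count of 10, total of 15). All 10 groups entered 1 fit in edgeR 4.0.16 (R 4.3.3) with TMM factors and the robust quasi-likelihood test, with 20 residual degrees of freedom, and the Benjamini-Hochberg adjustment ran over 16048 genes at a threshold of 0.01. The common biological coefficient of variation was 0.24 and the prior count of log2 CPM was 2. Intervals are at 95%, and those of single counts cover counting error only. The replicates are biological by the study's methods, and the labels give only their numbers. The tests were tried on simulated counts. Alternatives were library totals, relative log expression factors, no filter, unexposed nematodes as control, a fit of the compared groups alone, DESeq2 1.42.0, a threshold of 0.05, a replicate block and leaving out each library. Unexposed nematodes as control with d4T 24h replicate 2 left out was added after seeing the data.

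The members and gene lists were chosen with earlier results of these data known. Named genes are, per comparison of an analogue with DMSO, up to 5 called P450s with the largest rise and 5 with the largest fall, where either group averaged 1 CPM or more and the libraries of both did not overlap. To these were added the 5 P450s with the highest mean RPKM, those with a listed role, up to 3 called in each direction in the controls, *daf-9*, *emb-8* and called genes of the redox partner, monooxygenase, haem and regulator lists. Any other P450 named with a value or a call, such as *cyp-13A9*, *cyp-34A1*, *cyp-35B2* and *cyp-43A1*, was named after its values were seen.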

Additional observations from a re-analysis of the deposited data

Results flagged for a closer look

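The effect of each analogue at 72h was tested against its effect at 24h with the interaction term of edgeR's fit, and the results below passed at an adjusted p under 0.01. They are effects at 72h minus effects at 24h on the log2 scale, for every P450 that passed. Both effects are against DMSO, and the change was not tested with unexposed nematodes as the control. Against those no P450 was called with AZT at 24h.

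With AZT 32 of the 69 tested P450s differed between the times (46.4%, where 53.0% of all genes did). The differences were 7.52 for *cyp-34A1*, 5.53 for *cyp-13A7*, 4.62 for *cyp-13A5*, 4.29 for *cyp-23A1*, 3.96 for *cyp-42A1*, 3.69 for *cyp-37B1*, 3.62 for *cyp-14A5*, 3.45 for *cyp-13A4*, 3.17 for *cyp-13B1*, 3.05 for *cyp-33C4*, 2.84 for *cyp-36A1*, 2.83 for *cyp-33C8*, 2.46 for *cyp-29A4*, 2.05 for *cyp-34A2*, 1.86 for *cyp-33C9*, 1.83 for *cyp-29A3*, 1.74 for *cyp-43A1*, 1.62 for *cyp-34A8*, 1.61 for *cyp-32A1*, 1.59 for *cyp-14A1*, 1.56 for *cyp-33E3*, 1.3 for *cyp-33C3*, 1.22 for *cyp-33A1*, 1.16 for *cyp-35A5*, 0.94 for *cyp-33C7*, 0.79 for *cyp-35A2*, -1.45 for *cyp-29A2*, -1.67 for *cyp-44A1*, -2.5 for *cyp-31A2*, -3.07 for *cyp-31A3*, -3.29 for *cyp-31A5* and -5.16 for *cyp-14A3*. The value of *cyp-34A1* rests on 2 reads with AZT at 24h and 4 with DMSO at 72h.

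With d4T 7 differed (10.1%, where 8.01% of all genes did). The differences were 3.08 for *cyp-13A4*, 2.44 for *cyp-29A4*, 2.26 for *cyp-14A1*, 2.15 for *cyp-13A5*, 1.61 for *cyp-33C8*, -2.16 for *cyp-14A2* and -3.69 for *cyp-35A1*.

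With FLT 13 differed (18.8%, where 9.73% of all genes did). The differences were 3.47 for *cyp-13A4*, 1.92 for *cyp-33C8*, 1.59 for *cyp-36A1*, 1.52 for *cyp-29A4*, 1.52 for *cyp-33C3*, 0.84 for *cyp-31A1*, -1.15 for *cyp-35A2*, -1.68 for *cyp-35C1*, -1.78 for *cyp-25A2*, -1.99 for *cyp-25A1*, -2.94 for *cyp-35A4*, -3.27 for *cyp-35A3* and -4.45 for *cyp-35A1*.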

How the results depend on the processing

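Of 247 calls of named genes, tried under alternatives that gave 3258 values, 2685 values stayed on the same side of the threshold, 561 no longer passed it and 12 changed sign. Of the 3258 values 1716 came from leaving out single libraries, and 1311 of these stayed the same. With unexposed nematodes as the control only 45 of 97 calls held, while 42 no longer passed and 10 changed sign. All 12 changes of sign came with that control, 2 of them with d4T 24h replicate 2 also left out. At 24h these were *cyp-13A7* (2.0) and *cyp-36A1* (0.12) with AZT, *cyp-13A5* (0.69) and *cyp-33C8* (0.33) with d4T (0.64 and 0.38 with d4T replicate 2 also left out, an alternative chosen after seeing the data), and *cyp-13A7* (3.61), *mdt-15* (0.09), *cyp-13A5* (0.65) and *cyp-33C8* (0.44) with FLT. At 72h they were *fmo-4* (-0.1) and *nhr-48* (-0.04) with d4T. With that control the counts of called P450s were 0 for AZT (21 at an unadjusted p under 0.05), 22 for d4T (39 with d4T replicate 2 left out) and 21 for FLT at 24h, and 2 for d4T and 23 for FLT at 72h, beside 16, 9, 12, 4 and 10 against DMSO.

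With the compared groups fitted alone the counts were 25 for AZT, 0 for d4T (10 at an unadjusted p under 0.05 in edgeR) and 5 for FLT at 24h, 16 for d4T at 72h, 31 for DMSO against unexposed nematodes at 72h, 0 for AZT against d4T (19 at an unadjusted p under 0.05) and 0 for d4T against FLT (1 at an unadjusted p under 0.05) at 24h, and 26 and 14 for these pairs at 72h. In the fits that gave 0 P450s, 0 genes of all were called. In the others the share of all genes called was 32.1% for AZT and 5.42% for FLT at 24h. At 72h it was 45.7% for d4T and 42% for DMSO against unexposed nematodes. For AZT against d4T and d4T against FLT at 72h it was 37% and 21.4%. Without the filter that for d4T at 72h was 1 (6.42% of all genes). With library totals that for DMSO against unexposed nematodes at 72h was 14 (14.1% of all genes) and that for d4T against FLT at 24h 2 (5.84%). DESeq2 gave 2 for d4T against FLT at 24h (7.62% of all genes) and 19 for AZT against d4T at 72h (14.6%). At an adjusted p under 0.05 the counts were 33, 14 and 21 for AZT, d4T and FLT at 24h, 11 and 17 for d4T and FLT at 72h, 25 and 22 for DMSO against unexposed nematodes at 24h and 72h, 36 and 3 for AZT and FLT against d4T at 24h, 23, 29 and 12 for AZT against d4T, AZT against FLT and d4T against FLT at 72h, 38 for time with DMSO and 12 for the change of the d4T effect with time. The split of that change, 5 up and 2 down, was 4 and 3 with relative log expression factors (656 and 620 of all genes). With library totals it was 5 and 1 (1233 and 332 of all genes). The cause of these differences was not tested, and shares of all genes at the threshold of 0.05 are not given here.

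Leaving out 1 library at a time, the counts against DMSO ranged from 5 to 20, 6 to 22 and 8 to 13 for AZT, d4T and FLT at 24h and from 18 to 22, 0 to 1 and 7 to 9 at 72h. The shares of all genes called ranged from 2.41% to 10.8%, 2.21% to 36.9% and 6.06% to 13.6% at 24h. At 72h they ranged from 36.5% to 45.8%, 4.91% to 7.03% and 4.15% to 5.37%. The counts of DMSO against unexposed nematodes ranged from 8 to 19 at 24h and 3 to 6 at 72h (5.79% to 11.7% and 5.46% to 7.72% of all genes). Those of AZT against d4T, AZT against FLT and d4T against FLT ranged from 2 to 37, 11 to 28 and 1 to 5 at 24h and from 5 to 12, 15 to 18 and 4 to 5 at 72h. The shares of all genes for these pairs were 4.73% to 61.9%, 21.5% to 38.7% and 1.55% to 17.4% at 24h. At 72h they were 3.5% to 11.8%, 25.4% to 36.4% and 6.6% to 9.25%. The counts of time ranged from 15 to 19 in unexposed nematodes and 19 to 27 with DMSO (11.5% to 13.5% and 22% to 30.4% of all genes). Those of the change of an effect with time ranged from 22 to 34, 3 to 10 and 9 to 14 for AZT, d4T and FLT. Of all genes 45.8% to 51.1%, 4.92% to 14.8% and 5.43% to 9.38% were called there.

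Replicate numbers were not taken to pair the libraries, since 19 of 135 pairs with the same number had residuals correlated above 0.1 (-0.435 to 0.555). In 1 of 45 pairs of groups, d4T at 24h and unexposed nematodes at 72h, all 3 numbers were above 0.1, and these groups were not compared. With the replicate block the counts against DMSO were 15, 8 and 11 at 24h and 25, 4 and 9 at 72h for AZT, d4T and FLT, and no count moved by over 1.5 times. The shares of all genes with it were 9.18%, 5.67% and 14.4% at 24h and 48.5%, 11.4% and 7.75% at 72h. Depth limits the 11 untested P450s and those near 1 CPM.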
